A study of Mus musculus with 4 samples.

Results

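The 10 genes described here encode receptors of the EGF receptor (ERBB) family, ligands that bind them and a feedback inhibitor. They were chosen by name, and each matched 1 row of a deposited table of 23420 genes. The receptors were Egfr, Erbb2 and Erbb3, the ligands were Areg, Hbegf, Tgfa, Ereg, Epgn and Btc, and the inhibitor was Errfi1. Their transcripts were counted by RNA sequencing in cultures of a pair of mouse keratinocyte cell lines, MK1 and MK2, with 2 biological replicates of each line, and MK2 was compared with MK1. The labels name the lines and the cell type and give no genotype, strain, sex, age, passage, clonal origin or treatment. Each line therefore stands for itself, and a test measures the spread between cultures of these lines. The cultures came from a series on the targets of p63 in mouse and human epidermis.

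EGF-family ligands are made as membrane-anchored precursors, and metalloproteases of the ADAM family cut them free. A bound ligand brings ERBB receptors together in pairs, which switches on their kinase domains and the RAS-ERK and PI3K-AKT pathways. Keratinocytes make both the receptors and several ligands, so that they can stimulate themselves, and this signalling is best known in epidermis for driving proliferation and migration and holding back terminal differentiation. ERBB2 binds no ligand of its own and ERBB3 has little kinase activity, so that both act through partners.

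Libraries held 25237391 to 30261111 counts. Levels are given as CPM, read counts put on a common library size, for comparing a gene between lines, and as TPM, which also divides by the summed exon length, for comparing genes with each other. Keratinocyte markers were abundant in both lines: Krt5, Krt14, Trp63, Itga6 and Itgb4 were above 200 CPM in every library, and 6 keratinocyte markers together summed to 16460 to 19576 CPM. Krt15, a further basal keratin, was uneven in MK2 with 27.9 and 0.247 CPM. A list of 9 B-cell and leukocyte markers summed to 29.8 and 29.0 CPM in MK1 and to 0.238 and 0.0705 CPM in MK2, with 5 of the 9 at 0 counts in MK2. In MK1 most of that sum was Cd74, at 17.9 and 17.7 CPM. Also found in both MK1 libraries were the B-cell genes Cd79a (2.93 and 3.13 CPM), Cd79b (2.34 and 2.64) and Ms4a1 (1.61 and 1.23). So were the leukocyte genes Ptprc (2.80 and 2.38 CPM) and Laptm5 (2.11 and 1.71). All of these, and Cd74, were called lower in MK2 by the edgeR test described below. The T-cell gene Cd3e and the macrophage genes Lyz2 and Adgre1, which were at 0 in MK2, already stayed below 0.15 CPM in MK1. Leukocytes can also make Areg, Ereg and Hbegf. The part of these other cells in the differences below was not tested. Melanocyte and fibroblast markers summed to less than 4 CPM in every library. The endothelial list summed to 14.9 to 27.4 CPM, nearly all of it Kdr, and its defining member Cdh5 was at 0 in all libraries.

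Most of these genes were lower in MK2. Of the 10 genes, all of which had enough counts to be tested, 6 fell, 1 rose and 3 did not pass, against 54.6% of all genes called in either direction (edgeR's quasi-likelihood test, Benjamini-Hochberg adjusted p under 0.05 over 12479 genes). Those that fell were Egfr, Erbb3, Areg, Tgfa, Ereg and Errfi1, and the one that rose was Epgn. Over all genes tested, 28.6% were lower and 25.9% higher by the same rule. The median log2 fold change of the 10 genes was -0.66, and that of all genes tested was -0.01. Both MK2 libraries lay below both MK1 libraries for 8 of the 10, which held for 40.9% of all genes tested, and above them for Epgn, which held for 39.5%. A second test asked for changes beyond 2-fold (glmTreat, log2 fold change of 1), and only Errfi1 passed it among the 10, against 13.3% of all genes tested (10.1% lower and 3.25% higher). In bulk RNA, fewer cells making a transcript and less transcript per cell cannot be told apart.

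**Figure D1:**
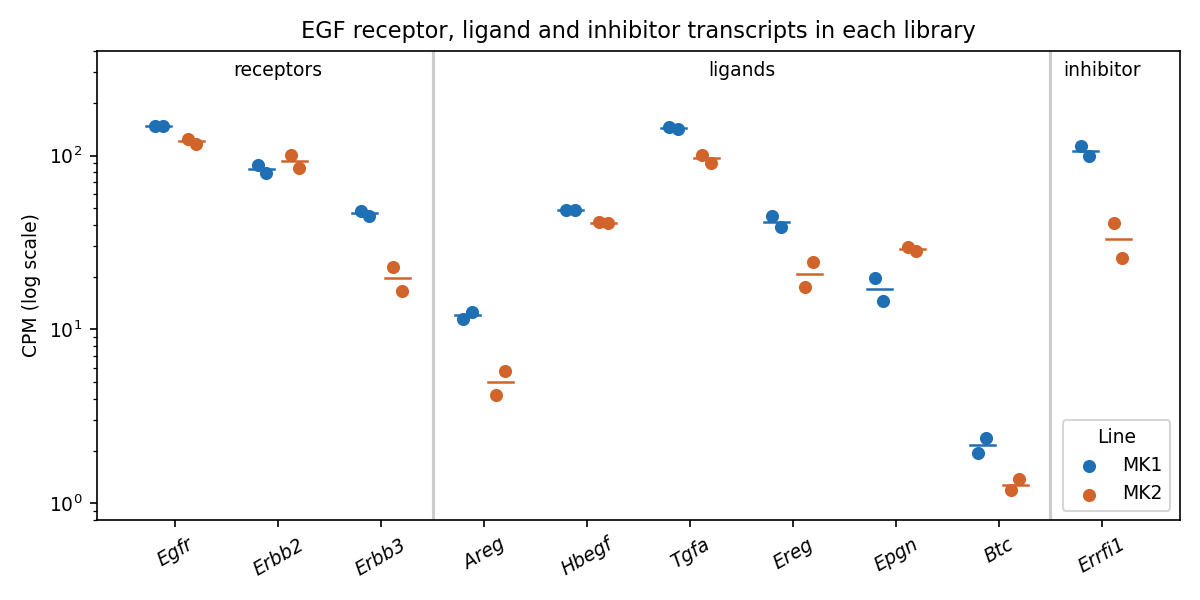
CPM (log axis) of the 10 genes in each library, with 1 point per culture and a short line at the mean of each line (MK1 blue, MK2 orange). The points of the lines overlap for Erbb2 alone, and Epgn alone has its MK2 points above its MK1 points.

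Egfr, which encodes the receptor that all 6 ligands can bind (chromosome 11, 16752203 to 16913907, plus strand, mm10), was abundant in both lines. Its transcripts were at 148 and 149 CPM in MK1 and 124 and 117 CPM in MK2. The lines did not overlap, but the difference was small. Egfr fell by 0.30 on the log2 scale (SE 0.10, adjusted p = 0.0388), a level in MK2 of 0.811 times that in MK1. Egfr no longer passed when MK1 replicate 1 was left out (adjusted p = 0.165), nor when it was MK1 replicate 2 (0.157) or MK2 replicate 2 (0.0903), nor with no low-count filter (0.0507), while the log2 change stayed between -0.36 and -0.26.

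Erbb2, the co-receptor without a ligand (chromosome 11, 98412484 to 98437716, plus strand), stood at 88.4 and 79.6 CPM in MK1 and at 101 and 85.0 CPM in MK2. The replicates of the lines overlapped, and the log2 difference of 0.15 did not pass (SE 0.13, 95% interval -0.15 to 0.44, adjusted p = 0.358). Some Erbb2 exon sequence overlaps exons of its neighbour Mien1 in the deposited annotation, so reads there may have been left out or shared.

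Erbb3, the neuregulin receptor that couples to PI3K (chromosome 10, 128569368 to 128589501, minus strand), showed the largest receptor difference. It stood at 48.1 and 45.0 CPM in MK1 and at 22.9 and 16.6 CPM in MK2. MK2 was low in both cultures, with a wider gap between them than in MK1. Erbb3 fell by 1.24 on the log2 scale (SE 0.17, adjusted p = 0.00120), so that MK1 had 2.36 times the MK2 level. The 50 tested genes that neighbour Erbb3 had a median log2 fold change of -0.42, lower than at any other of the 10 genes. The median over all tested genes of chromosome 10 was -0.33.

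The receptors thus differed in balance between the lines. Per length, the summed TPM of the 3 receptors was 112 and 104 in the MK1 replicates and 91.0 and 77.9 in the MK2 replicates. Egfr made up 44.9% ± 1.57 of it in MK1 and 44.5% ± 2.53 in MK2 (SD, n = 2 cultures, as for every SD below). Erbb2 made up 32.6% ± 1.29 and 44.0% ± 1.02, and Erbb3 22.5% ± 0.271 and 11.6% ± 1.504. The ratio of Egfr to Erbb3 in TPM was 1.93 and 2.06 in MK1 and 3.38 and 4.40 in MK2. Such shares and ratios are descriptions, since an exact permutation test of 2 against 2 libraries cannot give a p below 0.333.

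Tgfa, transforming growth factor alpha (chromosome 6, 86195251 to 86275449, plus strand), was the most abundant ligand transcript in both lines. It stood at 145 and 143 CPM in MK1 and at 101 and 91.1 CPM in MK2. Replicates differed little and the lines were well apart. Tgfa fell by 0.58 on the log2 scale (SE 0.11, adjusted p = 0.00402), to 0.668 times the MK1 level.

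Hbegf, heparin-binding EGF-like growth factor (chromosome 18, 36504927 to 36515805, minus strand), is known for its release during epidermal wound closure. It stood at 48.9 and 48.5 CPM in MK1 and at 41.3 and 41.1 CPM in MK2. The replicates were nearly equal within each line and the lines did not overlap. The log2 difference of -0.24 did not pass (SE 0.10, 95% interval -0.48 to -0.0013 before adjustment, adjusted p = 0.0814), and it was called lower with upper quartile scaling (adjusted p = 0.0421).

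Areg, amphiregulin, an autocrine growth factor of keratinocytes (chromosome 5, 91139615 to 91148432, plus strand), stood at 11.5 and 12.6 CPM in MK1 and at 4.21 and 5.75 CPM in MK2. Both MK2 cultures were far below either MK1 culture. Areg fell by 1.27 on the log2 scale (SE 0.20, adjusted p = 0.00229), and MK1 had 2.42 times the MK2 level.

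Ereg, epiregulin, a ligand of EGFR and ERBB4 (chromosome 5, 91074617 to 91093649, plus strand), stood at 44.7 and 38.6 CPM in MK1 and at 17.5 and 24.3 CPM in MK2. The MK2 cultures differed from each other by 0.46 on the log2 scale, less than the gap between the lines. Ereg fell by 0.99 (SE 0.18, adjusted p = 0.00369), and MK1 had 1.99 times the MK2 level. Over the 12 refits other than the 2-fold test, which did not call Ereg, its log2 change lay between -1.25 and -0.77 and its adjusted p did not exceed 0.0454.

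Epgn, epigen, a low-affinity ligand of EGFR (chromosome 5, 91027517 to 91035212, plus strand), went the other way. It stood at 19.8 and 14.5 CPM in MK1 and at 29.6 and 28.3 CPM in MK2. The MK2 cultures lay close together, above both MK1 cultures. Epgn rose by 0.75 on the log2 scale (SE 0.17, adjusted p = 0.00996), to 1.68 times the MK1 level. Its call ended without MK1 replicate 2, the lower of the MK1 cultures (log2 change 0.54, adjusted p = 0.0633).

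Btc, betacellulin, a ligand of EGFR and ERBB4 (chromosome 5, 91357261 to 91402994, minus strand), was the least abundant, with 30 to 64 counts per library. It stood at 1.94 and 2.38 CPM in MK1 and at 1.19 and 1.38 CPM in MK2, with no overlap between the lines. The log2 difference of -0.75 did not pass (SE 0.27, 95% interval -1.38 to -0.11 before adjustment, adjusted p = 0.0514). Over the 12 refits other than the 2-fold test, the adjusted p of Btc lay between 0.0410 and 0.264, on either side of the threshold.

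Errfi1 showed the largest difference of the 10 genes. It encodes MIG6, which ERK signalling induces and which binds the EGFR kinase domain and inhibits it (chromosome 4, 150855091 to 150868880, plus strand). It stood at 113 and 99.9 CPM in MK1 and at 40.8 and 25.6 CPM in MK2. The MK2 cultures differed by 0.66 on the log2 scale, and both were far below MK1. Errfi1 fell by 1.68 (SE 0.22, adjusted p = 9.82e-04; glmTreat adjusted p = 0.0179), so that MK1 had 3.21 times the MK2 level. In TPM, the ratio of Errfi1 to Egfr was 1.62 and 1.43 in the MK1 replicates and 0.704 and 0.466 in the MK2 replicates. Errfi1 transcripts thus outnumbered those of Egfr in both MK1 cultures and were outnumbered in both MK2 cultures.

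**Figure D2:**
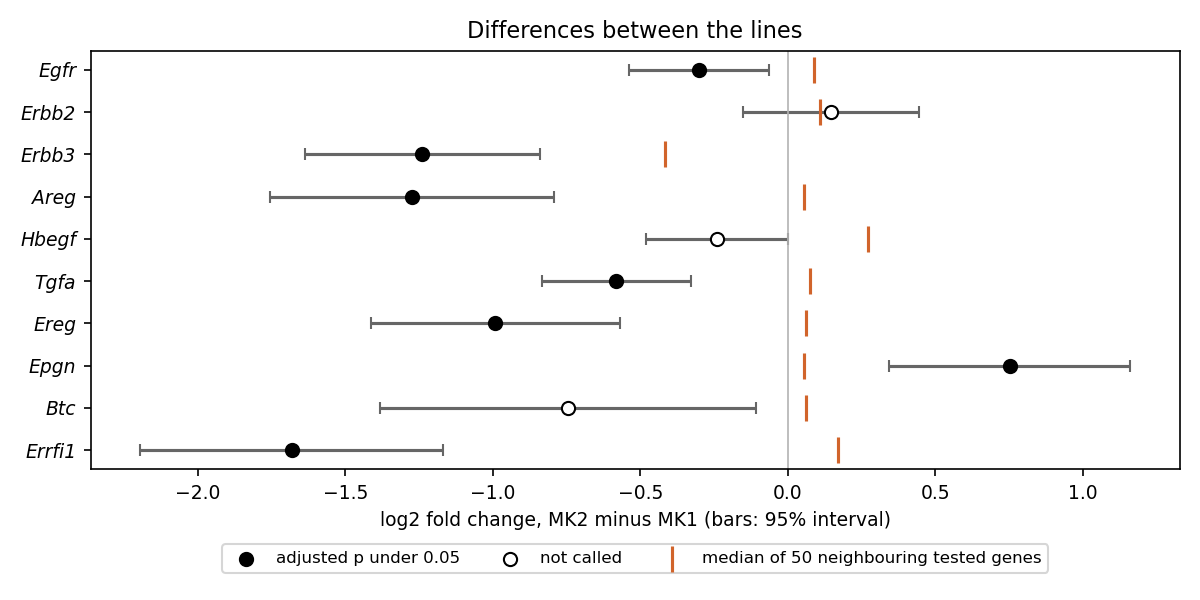
Log2 fold change of each gene, MK2 minus MK1, with its 95% interval before adjustment. Filled points passed an adjusted p of 0.05, open points did not, and orange ticks mark the median of the 50 neighbouring tested genes. Errfi1 lies lowest at -1.68, and Epgn, at 0.75, is the only filled point above 0.

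Ranked per length, the lines kept the same most and least abundant ligand but differed in between. In MK1 the order was Errfi1 at 73.9 ± 7.63 TPM, Tgfa at 71.2 ± 2.04, Egfr at 48.3 ± 0.759, Hbegf at 42.9 ± 0.936, Erbb2 at 35.2 ± 3.17 and Erbb3 at 24.2 ± 1.52. Epgn, Areg and Ereg followed at 21.1 TPM each (SD 4.95, 0.993 and 2.52), and Btc came last at 1.57 ± 0.202. Errfi1 and Tgfa overlapped between libraries, as did each neighbouring pair from Erbb3 down to Ereg. In MK2 Tgfa came first at 45.5 ± 4.01 TPM. Egfr, Erbb2, Hbegf and Epgn formed a run of overlapping neighbours from 37.4 ± 1.97 down to 34.0 ± 1.52 TPM. Errfi1 stood apart below them at 22.1 ± 7.43. Ereg, Erbb3 and Areg overlapped in turn at 10.1 ± 2.18, 9.84 ± 2.34 and 8.29 ± 1.70, and Btc was last at 0.892 ± 0.0783. Among all rows of the table, Tgfa stood at the 89.8 and 89.6 percentiles of TPM in MK1 and at 85.6 and 84.2 in MK2.

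The mix of ligand transcripts shifted with Epgn. The 6 ligands summed to 185 and 172 TPM in the MK1 replicates and to 135 and 132 TPM in the MK2 replicates. Tgfa took 39.8% ± 0.919 of the sum in MK1 and 34.1% ± 2.46 in MK2, and Hbegf took 24.0% ± 0.716 and 26.0% ± 0.0160. Epgn took 11.8% ± 2.16 in MK1 and 25.5% ± 0.727 in MK2. Areg went from 11.8% ± 1.16 to 6.22% ± 1.38 and Ereg from 11.8% ± 0.799 to 7.58% ± 1.76, while Btc took less than 1% in every library. In MK1 the transcripts of Epgn, Areg and Ereg were thus about equal, and in MK2 Epgn overlapped Hbegf.

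**Figure D3:**
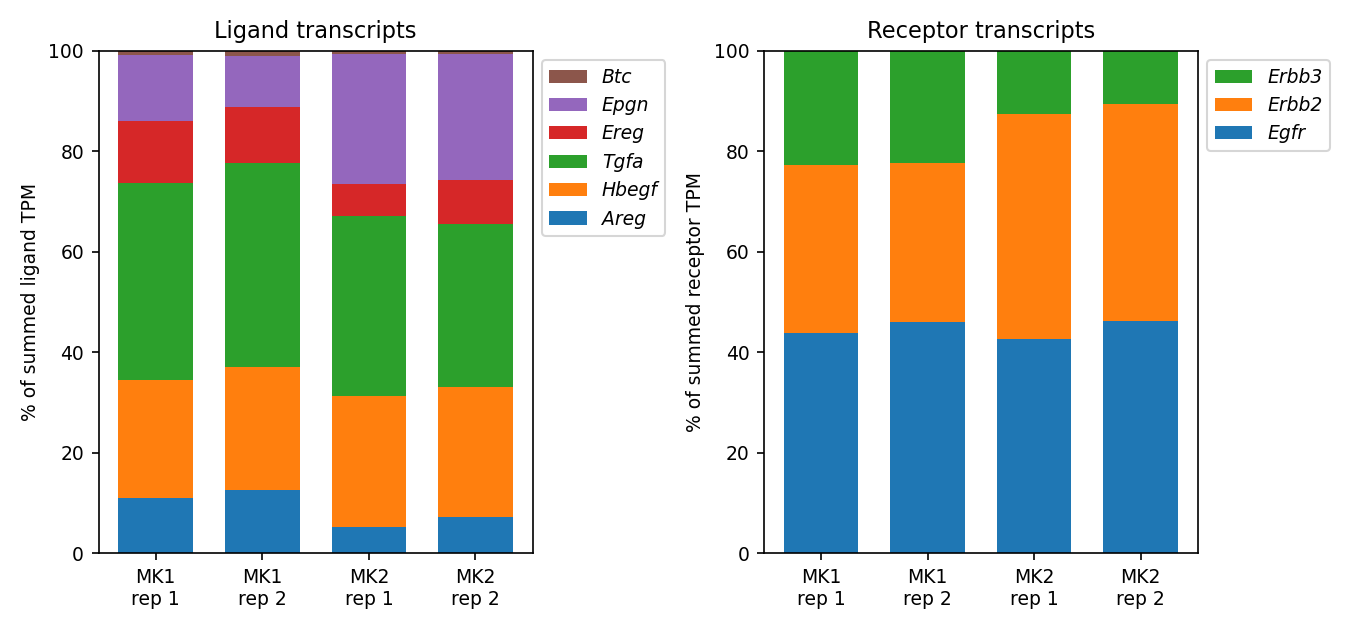
Share of the summed TPM of the 6 ligands (left) and of the 3 receptors (right) taken by each gene, in percent, with 1 bar per library. The Epgn segment covers 10.2% and 13.3% in the MK1 libraries and 24.9% and 26.0% in the MK2 libraries, and the Erbb3 segment is smaller in both MK2 libraries.

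Position gave no common direction. Epgn, Ereg, Areg and Btc lie together on chromosome 5, in that order, within 376 kb. The gap from Epgn to Ereg is 39.4 kb, from Ereg to Areg 46.0 kb and from Areg to Btc 209 kb. Epgn rose, while Ereg and Areg fell. The ratio of Epgn to Ereg in TPM was 1.08 and 0.914 in the MK1 replicates and 4.10 and 2.83 in the MK2 replicates. The ratio of Ereg to Areg was 1.12 and 0.886 in MK1 and 1.21 and 1.23 in MK2, a smaller shift than that of Epgn against Ereg. The median log2 fold change was -0.02 over all tested genes of chromosome 5, and 0.05 to 0.06 over the 50 tested neighbours of each cluster gene.

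On the outer side of Epgn, 6.15 kb away, Mthfd2l, a mitochondrial folate enzyme, also rose, from 12.96 ± 0.0492 to 26.6 ± 3.13 CPM (log2 fold change 1.04, SE 0.14, adjusted p = 0.00136). Beyond it, the chemokine gene Cxcl2 was below 1 CPM in every library and fell (log2 fold change -3.67, adjusted p = 0.00744). Its log2 change was -3.23 without MK1 replicate 1, where it did not pass. It was -2.80 without MK2 replicate 1 and -7.40 without MK2 replicate 2. Cxcl1, another chemokine gene, was uneven, with 10.3 and 4.84 CPM in MK1 and 5.84 and 79.4 CPM in MK2, and did not pass (adjusted p = 0.0761). Without MK2 replicate 1 Cxcl1 was called higher (log2 fold change 3.39, adjusted p = 6.88e-05), and without MK2 replicate 2 its difference turned to -0.37. It was also called higher with no filter on low counts (adjusted p = 0.00972). Cxcl3 and Il8, further out, had too few counts to be tested. Cxcl3 had 0 counts in both MK1 libraries and 2 and 33 in MK2, and Il8 had 3 and 0 in each line. On the side of Btc, Rchy1, a ubiquitin ligase, fell by 0.44 (adjusted p = 0.0156), but did not pass when MK1 replicate 1 was left out (adjusted p = 0.133). Parm1, Thap6, Gm1045 and Cdkl2 did not pass (adjusted p = 0.314, 0.0824, 0.0622 and 0.0919), although Gm1045 was called higher without MK2 replicate 1 (adjusted p = 0.00106) and with no filter on low counts (adjusted p = 0.0149). Thap6 was called lower with upper quartile scaling (adjusted p = 0.0497).

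**Figure D4:**
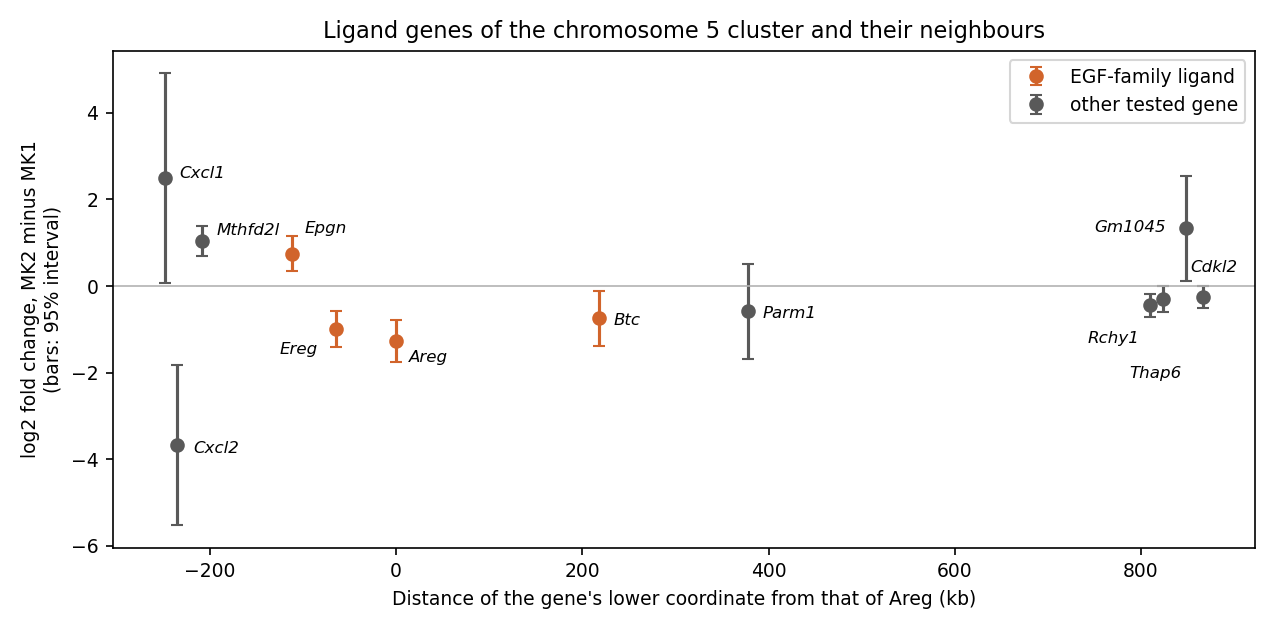
Log2 fold change with its 95% interval before adjustment, against the distance of each gene's lower coordinate from that of Areg in kb, for the ligand genes (orange) and the tested genes around them (grey). Epgn and its outer neighbour Mthfd2l lie above 0, at 0.75 and 1.04, whereas Ereg, Areg and Btc lie below 0.

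Promoter windows of 250 bases before to 50 bases after the start were found in RefSeq's GRCm38.p6 annotation for 7 of the 10 genes, with 2 windows for Errfi1. Erbb3, Hbegf and Ereg had no entry. Windows of Epgn and Areg are shown because these genes of 1 cluster moved in opposite directions, and that of Errfi1 because it differed most. Capitals mark exact matches, on either strand, to the AP-1 motif TGANTCA, the cyclic AMP response element (CRE) TGACGTCA, the GC box GGGCGG or the TATA box TATAAA.
Epgn, chr5:91027267-91027566, plus strand: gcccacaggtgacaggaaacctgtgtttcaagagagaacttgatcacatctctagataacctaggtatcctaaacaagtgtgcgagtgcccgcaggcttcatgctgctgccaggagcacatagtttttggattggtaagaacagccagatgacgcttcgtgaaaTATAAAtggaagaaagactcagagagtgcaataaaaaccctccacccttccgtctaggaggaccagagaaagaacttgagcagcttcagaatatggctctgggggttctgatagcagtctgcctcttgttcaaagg
Areg, chr5:91139349-91139648, plus strand: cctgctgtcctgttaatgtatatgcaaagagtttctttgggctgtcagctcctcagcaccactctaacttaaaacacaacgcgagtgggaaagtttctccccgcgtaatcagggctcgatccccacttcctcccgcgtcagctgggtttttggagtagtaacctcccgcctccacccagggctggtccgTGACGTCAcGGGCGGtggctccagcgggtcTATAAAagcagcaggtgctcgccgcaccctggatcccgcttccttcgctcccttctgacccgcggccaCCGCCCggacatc
Errfi1, second window, chr4:150854820-150855119, plus strand: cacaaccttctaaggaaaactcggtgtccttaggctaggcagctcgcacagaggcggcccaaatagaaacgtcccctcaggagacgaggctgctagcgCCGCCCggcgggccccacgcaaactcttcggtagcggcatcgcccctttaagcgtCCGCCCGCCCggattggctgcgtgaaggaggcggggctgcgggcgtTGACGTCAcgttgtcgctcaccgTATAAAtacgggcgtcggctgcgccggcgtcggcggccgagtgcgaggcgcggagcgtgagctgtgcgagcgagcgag
The Areg and Errfi1 windows each held a CRE, 61 and 51 bases before the start, and a TATA box, 31 and 28 bases before it. The Epgn window held a TATA box 86 bases before the start and none of the other motifs. GC boxes occurred in the windows of Egfr (1), Areg (2), Tgfa (2) and the second of Errfi1 (3, of which 2 overlap). The windows of Erbb2 and Btc and the first of Errfi1 held no match, and TGANTCA occurred in none of the 8. Of 32851 promoter windows, 7.81% held TGANTCA, 1.79% TGACGTCA, 35.7% GGGCGG and 13.6% TATAAA. A match is a stretch of letters, and binding was not measured.

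The remaining ligands and receptor of the family were measured beside these genes. Of 6 listed, 3 had enough counts to be tested, 2 rose and none fell, against 25.9% higher and 28.6% lower among all genes tested. Nrg2, a neuregulin, which binds ERBB3 and ERBB4, was uneven in MK2. It stood at 20.3 and 27.4 CPM in MK1 and at 101 and 45.7 CPM in MK2 and rose by 1.62 on the log2 scale (SE 0.36, adjusted p = 0.00841), but did not pass when MK1 replicate 1 was left out (adjusted p = 0.0846). Without MK2 replicate 1 the rise of Nrg2 was 0.95 and still passed (adjusted p = 0.00306). Nrg1, the most abundant neuregulin here, went from 71.0 and 61.1 CPM to 78.7 and 96.0 CPM and rose by 0.40 (adjusted p = 0.0445). Nrg1 did not pass when MK1 replicate 1 was left out (adjusted p = 0.0912), nor when it was MK1 replicate 2 (0.253) or MK2 replicate 2 (0.154). It did not pass with upper quartile scaling (adjusted p = 0.0744) or a minimum count of 50 (adjusted p = 0.0520) either, and it kept its call in 6 of 12 refits. Egf itself was at 0.670 to 1.19 CPM and did not pass (adjusted p = 0.103). Erbb4 had 0 counts in all libraries, and Nrg3 and Nrg4 had too few counts to be tested.

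Genes of ligand release were lower or did not pass. Of 10 listed sheddases and their partners, all tested, 6 fell and none rose, against 28.6% lower and 25.9% higher among all genes tested. Their median log2 fold change was -0.39, against -0.01 for all genes tested. Adam9 was the most abundant by TPM, at 426 and 401 CPM in MK1 and 313 and 391 CPM in MK2, and did not pass (adjusted p = 0.181). It was called lower without MK2 replicate 2 (adjusted p = 0.0194). Chosen after its value was seen, Adam17, the main protease that releases Tgfa, Areg, Ereg and Hbegf, went from 177 and 159 CPM to 105 and 93.6 CPM and fell by 0.76 (SE 0.12, adjusted p = 0.00196). Adam10, also chosen after its value was seen and known to release Btc, fell by 0.39 (adjusted p = 0.0196), but did not pass when either MK1 replicate 1 (adjusted p = 0.155) or its partner MK1 replicate 2 (0.0561) was left out. Without MK1 replicate 1 or without MK1 replicate 2, 2 of the 10 genes fell.

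Adaptors and signal relay genes had no common direction. Of 26 tested, 6 rose and 5 fell, against 25.9% higher and 28.6% lower among all genes tested. The median log2 fold change of the list was 0.03. Plcg1, phospholipase C gamma, which binds activated receptors, rose from 82.2 and 90.5 CPM to 209 and 232 CPM, by 1.35 on the log2 scale (SE 0.11, adjusted p = 1.95e-04). Akt1, the most abundant, did not pass (log2 fold change 0.11, adjusted p = 0.394). Of the 5 that fell, Pik3r1, a PI3K subunit chosen after its value was seen, fell most (log2 fold change -0.94, adjusted p = 0.00458). It went from 33.6 and 31.5 CPM in MK1 to 19.7 and 14.1 CPM in MK2. Without MK1 replicate 1, 2 of the list rose and 1 fell, without MK1 replicate 2, 2 rose and 2 fell, and without MK2 replicate 1, 3 fell.

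Among 21 genes of receptor down-regulation, 7 rose and 3 fell, against 25.9% higher and 28.6% lower among all genes tested. The median log2 fold change of the list was 0.10. Ptpn1, a phosphatase that acts on internalised EGFR, rose from 155 and 158 CPM to 284 and 253 CPM, by 0.78 (SE 0.11, adjusted p = 0.00136). Ptprj, a receptor-type phosphatase, fell by 1.01 (SE 0.16, adjusted p = 0.00221) and did not pass the 2-fold test. Cd82, chosen after its value was seen, had the largest change of the list (log2 fold change -3.34, adjusted p = 0.00238). Cd82 passed the 2-fold test but was scarce, with 92 and 42 counts in MK1 and 3 and 9 in MK2. Errfi1 fell, whereas this list of receptor down-regulation genes held calls in both directions. Without MK1 replicate 1, 2 of the list rose and 2 fell, and without MK1 replicate 2, 3 rose.

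Of 14 tested transcripts that EGF induces through ERK, 3 rose and 5 fell, with a median of -0.24. The shares over all genes tested were 25.9% higher and 28.6% lower. Egr1, an immediate-early transcription factor, stood at 44.8 and 20.0 CPM in MK1 and at 7.79 and 3.74 CPM in MK2. The MK1 cultures were uneven, and both MK2 cultures were lower. Egr1 fell by 2.50 on the log2 scale (SE 0.46, adjusted p = 0.00412), with a log2 change of -1.80 without MK1 replicate 1 and of -3.11 without MK2 replicate 1. Junb, the most abundant of the list in MK1 by TPM, fell by 0.38 (adjusted p = 0.0389), but did not pass when MK1 replicate 1 was left out (adjusted p = 0.173), nor when it was MK1 replicate 2 (0.142) or MK2 replicate 1 (0.118). How many transcripts of this list were called higher or lower depended on which library was left out, with the ranges given in the last section.

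**Figure D5:**
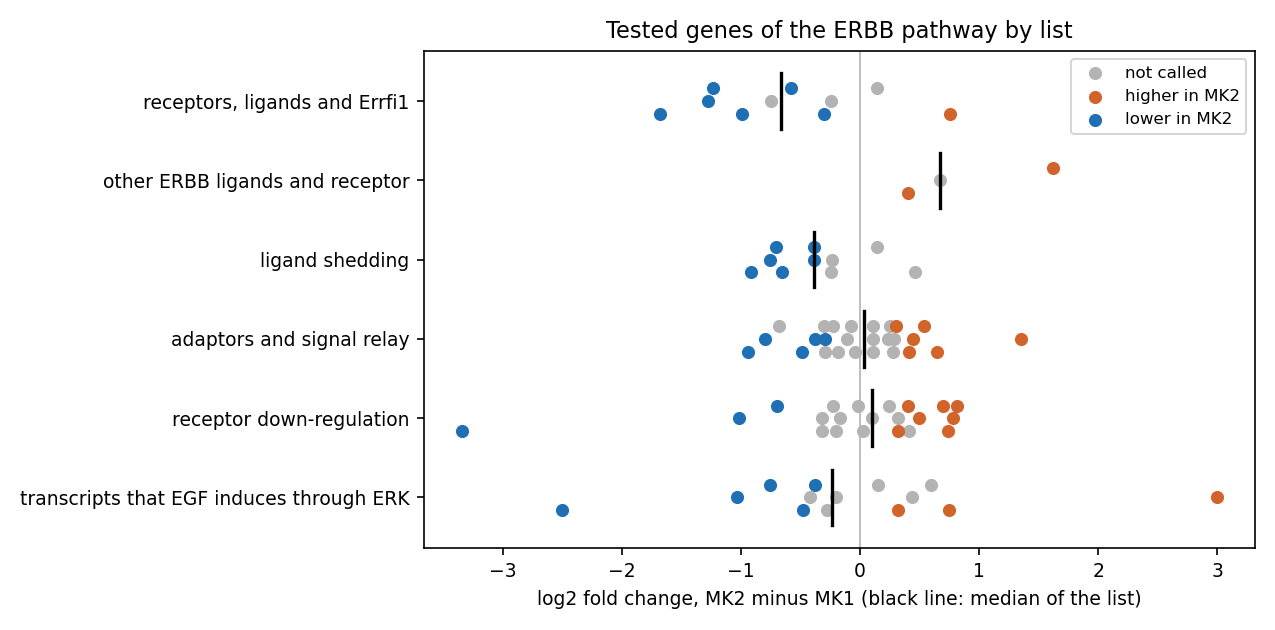
Log2 fold change, MK2 minus MK1, of each tested gene by list, coloured by its call at an adjusted p of 0.05, with a black line at the list median. The receptors, ligands and Errfi1 have a median of -0.66 and the sheddases of -0.39, while the relay and down-regulation lists centre near 0 with calls on both sides.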

How the data were processed

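Total RNA of cultured MK1 and MK2 cells was extracted with a Direct-zol kit and sequenced after TruSeq library preparation, per the labels' protocols. The deposited values are raw counts of reads on each gene, not normalised by the authors: per the file headers, featureCounts 1.4.6-p4 summed exon reads by gene name in the UCSC mm10 annotation, with no option for strand, pairs or multiple alignments. The submitters' processing notes list Bowtie2 2.2.6 and TopHat2 2.0.13 for alignment, DESeq2 1.10.1, and another version of featureCounts (1.5.0). The summed exon length in bases is a further deposited column. The recorded command lists alignments labelled MK and MKU, but the table's count columns read MK1 and MK2, and each column was assigned through its own name and the sample titles. No count column lacked a sample (0 columns) and no row a gene name (0 rows).

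Differences were tested in R 4.3.3 with edgeR 4.0.16 (filterByExpr minimum count 10, TMM scaling, quasi-likelihood F test, two-sided, Benjamini-Hochberg adjustment over 12479 genes at 0.05). Standard errors are the log2 fold change divided by the square root of F, and 95% intervals use the test's degrees of freedom. CPM used TMM-scaled library sizes. The procedure was tested on simulated data in which 100 genes changed 2-fold and 100 changed 4-fold. Of these, 92% and 100% were called, against 0.0497% of 12084 unchanged genes. With so few changed genes, the simulation does not test scaling or error rates where 54.6% of genes are called. Replicates differed beyond counting noise (median chi-square per gene 2.88 in MK1 and 4.28 in MK2). Alternatives covered scaling, count filters, DESeq2 1.42.0, glmTreat, each library left out and replicate blocks. Named genes were the 10 genes, up to 4 called genes per direction of each of 5 pathway lists with an absolute log2 fold change of at least 1 and 10 CPM in the higher line, each list's most abundant gene by TPM, and the 5 genes with counts on either side of the ligand cluster. Further genes, marked where they occur, were chosen after their values were seen. Of the listed symbols, 2 were matched through a synonym (Hras and Adgre1). Members and lists were chosen with earlier results of these data known. Protein sequences are not used here.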

Additional observations from a re-analysis of the deposited data

How the results depend on the processing

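No log2 fold change of the 10 genes changed sign in the 120 refits (12 alternatives for each gene), and 108 refits kept the side of the threshold. Calls of Erbb3, Areg, Tgfa, Ereg and Errfi1 held in every alternative except the 2-fold test, which left 0 of the 10 genes higher, 1 lower (Errfi1) and, over all genes, 405 higher and 1257 lower. By that test 0 other ERBB genes, 0 regulators of down-regulation and 0 EGF-induced transcripts were higher and 1 relay gene was. It found 0 sheddases and 0 relay genes lower, 1 regulator lower (Cd82) and 1 EGF-induced transcript lower (Egr1). Other ERBB genes called higher numbered 1 with upper quartile scaling, 1 with a minimum count of 50 and 1 with the replicate block, and EGF-induced transcripts called higher numbered 1 with a minimum count of 50. The replicate block left 3 EGF-induced transcripts lower, and 1 of the 10 genes higher and 5 lower (Egfr not called, adjusted p = 0.0721), and Nrg1 was not called (adjusted p = 0.0866). The labels give no pairing of cultures, so the replicate numbers were not taken to pair them. Deviations of same-numbered libraries correlated at -0.159 across genes, and the crossed pairing mirrors this at 0.159. With the crossed replicate block, an alternative chosen after seeing the data, 1 of the 10 genes was higher and 7 lower.

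With each library left out in turn, the 10 genes had 0 to 1 higher and 5 to 6 lower, and all genes 1527 to 3222 higher and 2189 to 3625 lower. Relay genes ranged from 2 to 7 higher and 1 to 4 lower, sheddases from 2 to 7 lower, other ERBB genes from 0 to 2 higher, regulators of down-regulation from 2 to 6 higher and 2 to 4 lower, and EGF-induced transcripts from 0 to 6 higher and 1 to 7 lower. Leaving out a library leaves 1 line with 1 culture, which is then assumed to vary like the other line. The Cxcl1 difference ranged from -0.37 (without MK2 replicate 2) to 3.39 on the log2 scale, and the cause was not tested.

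Shares depended on dividing by length, since genes differ in exon length. From CPM, the ligand shares in MK1 and MK2 were 4.56% and 2.58% for Areg, 18.3% and 21.3% for Hbegf, 54.2% and 49.7% for Tgfa, 15.7% and 10.8% for Ereg and 6.45% and 15.0% for Epgn. Receptor shares were 53.3% and 51.8% for Egfr, 30.1% and 39.8% for Erbb2 and 16.7% and 8.42% for Erbb3. Their direction between the lines was the same on both scales. Btc, at 30 to 64 counts, is the gene that depth limits most.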
